A study of Saccharomyces cerevisiae with 3 samples.

Results

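The 6 phosphoinositide kinase genes of Saccharomyces cerevisiae that are described here are STT4 (YLR305C), PIK1 (YNL267W), LSB6 (YJL100W), MSS4 (YDR208W), VPS34 (YLR240W) and FAB1 (YFR019W). They were chosen by name, with earlier results of these data known, so their counts below are descriptions and not support from an independent choice. The platform annotation of the array gave each of them 2 probes, 12 of the 18794 named probes that stand for 5325 genes. Genomic DNA from a pooled variomics library, in which each strain carries sequence variants of 1 gene together with a pair of short DNA tags, was compared with untreated DNA of that library on 1 two-colour tag array each for cycloheximide, rapamycin and tunicamycin. The labels name the library as that of essential genes, put the drug-selected DNA in Cy5 and the untreated DNA in Cy3, and state for all samples that the cells had been sporulated and grown in selection medium. Cycloheximide blocks translation elongation, rapamycin binds the prolyl isomerase Fpr1 and as that complex inhibits TOR kinase, and tunicamycin blocks the enzyme Alg7, which starts N-linked glycan synthesis. The sample descriptions give an amount of 30 ng for cycloheximide, 20 ng for rapamycin and 3 with an unclear unit for tunicamycin. They use the word pool for the cycloheximide and tunicamycin samples and the word single for rapamycin, so for rapamycin the drug and a possible difference in library or selection cannot be told apart.

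Phosphoinositides are phosphorylated forms of the membrane lipid phosphatidylinositol (PI), and each form marks certain membranes of the cell. In yeast, PI 4-kinases make PI4P: Stt4 acts at the plasma membrane, Pik1 at the Golgi and in the nucleus, and Lsb6 is a further, type II enzyme at the plasma membrane and the vacuole. Mss4 turns PI4P at the plasma membrane into PI(4,5)P2, which serves actin organisation, cell wall signalling and TOR complex 2 signalling. Vps34 makes PI3P on endosomes and in autophagy, and Fab1 turns PI3P into PI(3,5)P2 on endosomes and the vacuole. STT4, PIK1 and MSS4 are essential for growth, and deletions of LSB6, VPS34 and FAB1 are viable. The labels give the class of essential genes for the library but no list of its strains. LSB6, VPS34 and FAB1 lie outside that class by textbook knowledge and may have had no strain in the library, in which case the lack of a call for VPS34 and FAB1 says nothing about variants of these genes.

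All values below are deposited log2 ratios, taken as drug-selected over untreated DNA, minus the median of all measured spots of the array. The file does not state that direction, which was read from the dye labels of the channels and is likely but not certain. With the ratio turned, every depletion given below would be an enrichment and every rank from the highest a rank from the lowest, and the reverse. The value of a gene is the mean of its measured probes, with the SD between those probes and their number n. Of 22575 spots per array, 18680 were measured under cycloheximide, 19558 under rapamycin and 19098 under tunicamycin. The spread unit of an array, the scaled median absolute deviation of its gene values, was 0.92, 1.06 and 0.91 on the log2 scale in the same order. A gene was called depleted when at least 2 probes were measured, its value was 3 or more units below 0 and no probe was closer to 0 than 2 units, and enriched by the mirrored rule above 0. Since every measured probe had to pass, genes with more measured probes were harder to call. The median SD between the probes of genes with 2 measured probes was 0.83, 0.84 and 0.75 for cycloheximide, rapamycin and tunicamycin. With 1 array per drug there is no replicate, so no p-value was computed, no difference was tested, and calls are statements of size.

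The PI 4-kinase genes were depleted under every drug in which both of their probes were measured. The MSS4 tags were above the array median under cycloheximide, without a call, and were depleted under tunicamycin. The endosomal kinase genes were not called on any array. Counting kinases with at least 2 measured probes, the depleted ones were 3 of 5 under cycloheximide, against 15.2% of all genes. Under rapamycin 2 of 3 were depleted, against 6.45% of all genes. Under tunicamycin 4 of 5 were depleted, against 13.6% of all genes. The set of all genes takes in genes that may have had no strain in the library, so it is not a like background. A closer comparison is the list of 14 protein kinases needed for growth, described further below. With at least 2 measured probes, its depleted members numbered 8 among 12 (cycloheximide), 6 among 9 (rapamycin) and 7 among 13 (tunicamycin). An excess of the phosphoinositide kinases over that list was not tested. None of the 6 phosphoinositide kinases was enriched on any array. The share of all genes enriched was 0.0485% for cycloheximide, 0.0747% for rapamycin and 0.12% for tunicamycin. The medians of the kinases with any measured probe were -3.48 for 5 genes under cycloheximide, -6.03 for 4 genes under rapamycin and -3.13 for 6 genes under tunicamycin, against -0.04, -0.21 and -0.09 over all genes in the same order. All depletion calls among the 6 phosphoinositide kinases belong to the PI 4-kinases and MSS4. With limits of 4 units for the gene and 3 for each probe, STT4 alone remained depleted under cycloheximide, PIK1 and MSS4 under tunicamycin, and STT4 and LSB6 under rapamycin. Leaving out spots that hold a ratio of small whole numbers, which widened the spread unit, ended all 3 calls under cycloheximide and those of STT4 and LSB6 under tunicamycin, and keeping coded spots ended that of STT4 under tunicamycin.

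**Figure D1:**
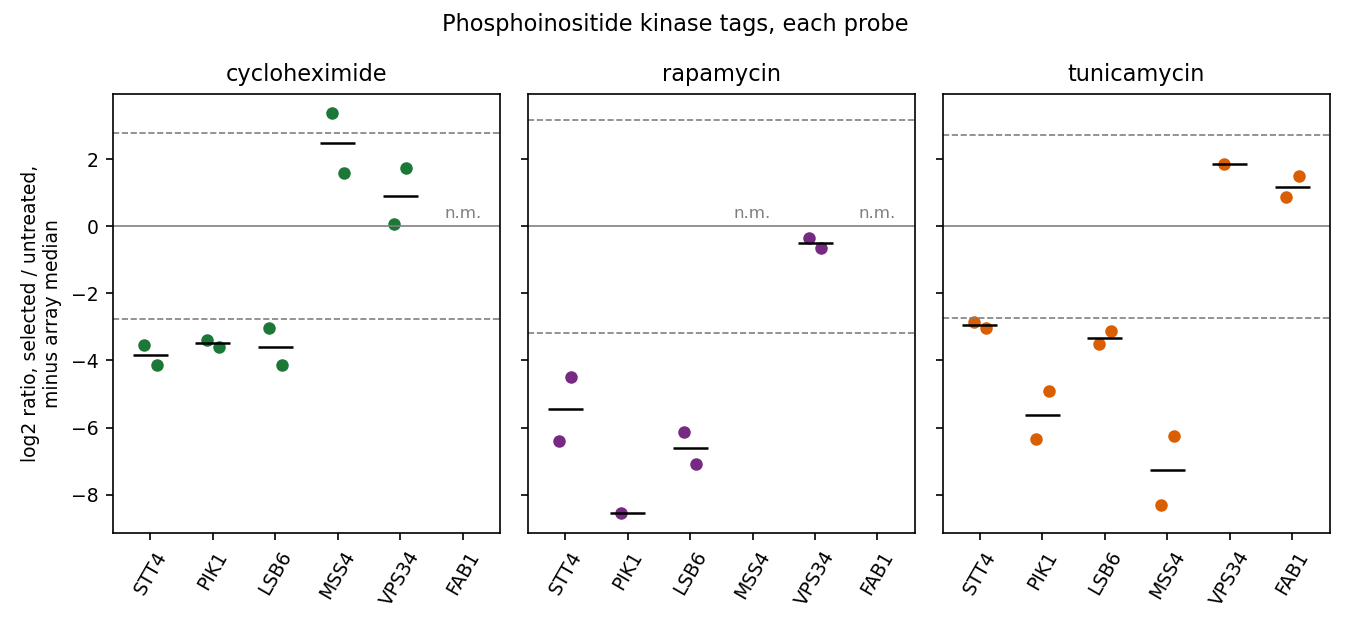
Value of each measured probe of the 6 genes (points, lower-numbered probe on the left) on the 3 arrays, as the log2 ratio of selected over untreated DNA minus the array median; short lines are gene means, dashed lines the 3-unit limits and n.m. genes with no measured probe. The PI 4-kinase probes all lie below 0, and the MSS4 probes lie at 3.37 and 1.60 under cycloheximide and at -8.32 and -6.24 under tunicamycin.

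STT4 encodes the PI 4-kinase that supplies PI4P at the plasma membrane. Its lower- and higher-numbered probes stood at -3.54 and -4.13 under cycloheximide, at -6.41 and -4.48 under rapamycin and at -2.86 and -3.03 under tunicamycin. The 6 probe values were all negative, and the probe ranges of the 3 arrays did not overlap. The gene values were -3.83 ± 0.42 under cycloheximide, -5.45 ± 1.37 under rapamycin and -2.95 ± 0.12 under tunicamycin (SD, n = 2 probes each), which are 14.3-fold, 43.7-fold and 7.72-fold below the array median. STT4 was thus depleted on each array, but its place among the depleted genes differed. Under cycloheximide 302 of the 625 depleted genes were lower, under rapamycin 179 of 259, and under tunicamycin 557 of 569, where the limit of the call was -2.74.

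PIK1 encodes the PI 4-kinase of the Golgi. Its probes stood at -3.38 and -3.59 under cycloheximide and at -6.33 and -4.90 under tunicamycin, and its only measured probe under rapamycin at -8.56. The probe ranges of the 3 arrays did not overlap, and the rapamycin probe was the lowest of the 5 measured ones. The gene values were -3.48 ± 0.15 under cycloheximide (n = 2), -8.56 under rapamycin (n = 1) and -5.62 ± 1.01 under tunicamycin (n = 2). PIK1 was depleted under cycloheximide and tunicamycin and could not be called under rapamycin, where it was depleted only if 1 measured probe sufficed. The rapamycin probe had a deposited value of -9.89, close to the lowest value of that array, -9.996, and 57 spots lay below it. Under tunicamycin, where STT4 was near the limit of the call, PIK1 stood in the middle of the depleted genes, with 264 of the 569 lower.

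LSB6 encodes the PI 4-kinase whose loss yeast survives. Its probes stood at -3.02 and -4.14 under cycloheximide, at -6.14 and -7.10 under rapamycin and at -3.52 and -3.13 under tunicamycin. All 6 were negative, as for STT4, and only the cycloheximide and tunicamycin ranges overlapped. The gene values were -3.58 ± 0.79, -6.62 ± 0.68 and -3.32 ± 0.28 for cycloheximide, rapamycin and tunicamycin (SD, n = 2 each), and the lowest of these is 98.4-fold below the array median. LSB6 was depleted on each array although it lies outside the essential genes by textbook knowledge. STT4 and LSB6 were the 2 kinases with 2 measured probes on all 3 arrays and depleted on each. Depletion on each array held for 4.76% of all genes with at least 2 measured probes on every array. That share also takes in genes that may have had no strain in the library.

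The order of the PI 4-kinases was not resolved on every array. Under cycloheximide the gene values spanned only -3.83 to -3.48, and the probe ranges of all 3 genes overlapped. Under rapamycin the LSB6 and STT4 ranges overlapped, and the lower value of PIK1 rests on 1 probe near the lower end of the array. Under tunicamycin PIK1 was lowest at -5.62, and LSB6 and STT4 followed at -3.32 and -2.95 with ranges that did not overlap.

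MSS4 encodes the only PI4P 5-kinase of yeast. Its probes stood at 3.37 and 1.60 under cycloheximide, and at -8.32 and -6.24 under tunicamycin. Neither probe was measured under rapamycin, as for 4.84% of the genes with 2 named probes. Both probes lay above 0 under cycloheximide and below 0 under tunicamycin, and the gap between the arrays was far wider than the distance between the probes of either. The gene value was 2.49 ± 1.25 under cycloheximide and -7.28 ± 1.47 under tunicamycin (SD, n = 2 each), 5.61-fold above and 155-fold below the array medians. Under tunicamycin MSS4 was depleted, and 27 of the 569 depleted genes were lower. Under cycloheximide it had the 23rd highest of 5192 gene values but was not called, since 2.49 fell short of the limit of 2.77 and the higher-numbered probe, at 1.60, fell short of 1.85. Among the 568 genes that were depleted under tunicamycin and had 2 measured probes under cycloheximide, 512 were depleted and 7 had a value above 0 under cycloheximide. In 5 of them, MSS4, MTR2, PRO3, RPT5 and TFB2, both probes lay at least 1 spread unit above 0 under cycloheximide, and MSS4, MTR2 and RPT5 had a value of 2.49 or more. MTR2 (YKL186C), an mRNA export factor, and RPT5 (YOR117W), an ATPase of the proteasome, were, like PRO3 and TFB2, picked out after their values had been seen. MTR2 had 2.69 ± 0.81 under cycloheximide and -4.00 ± 0.97 under tunicamycin, and RPT5 had 2.59 ± 0.68 and -5.80 ± 0.91 on these arrays (SD, n = 2 each). Of MSS4, MTR2 and RPT5, MSS4 was the lowest under tunicamycin.

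**Figure D2:**
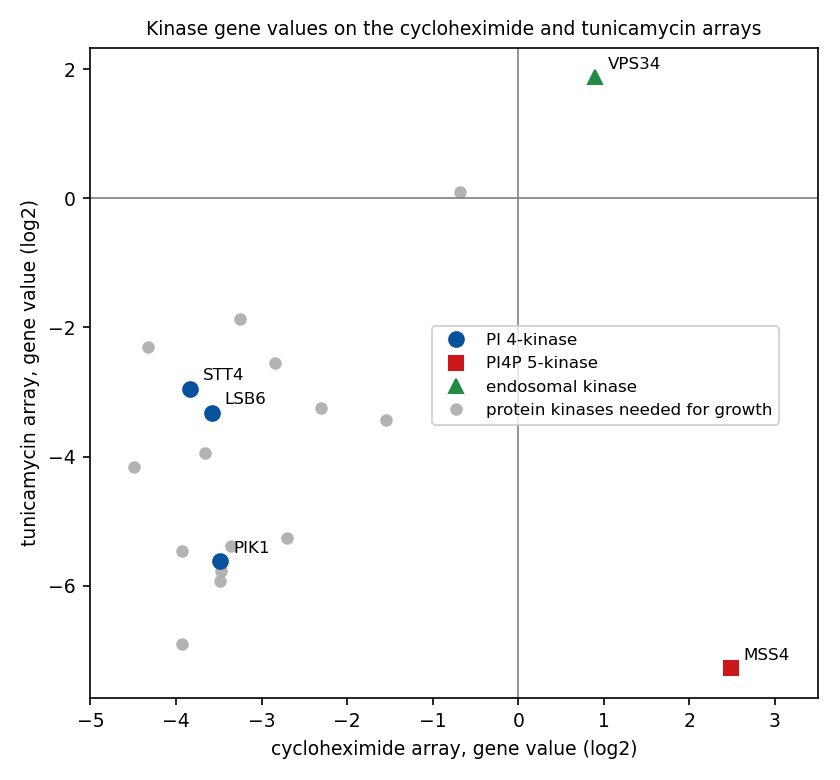
Gene values on the cycloheximide array (horizontal) and the tunicamycin array (vertical), log2 ratio of selected over untreated DNA minus the array median, for the phosphoinositide kinases measured on both and for 14 protein kinases needed for growth (grey). MSS4 lies alone at lower right, at 2.49 and -7.28, and the PI 4-kinases lie at lower left among the grey points.

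VPS34 encodes the only PI 3-kinase of yeast. Its probes stood at 0.06 and 1.74 under cycloheximide and at -0.35 and -0.64 under rapamycin, and its only measured probe under tunicamycin at 1.87. None of the 5 lay in the range of the PI 4-kinase probes. The gene values were 0.90 ± 1.19 (n = 2) under cycloheximide, -0.49 ± 0.20 (n = 2) under rapamycin and 1.87 (n = 1) under tunicamycin, and VPS34 was not called on any array. The value under tunicamycin was the 59th highest of 5232, but its single probe had a deposited value of exactly 1.

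FAB1 encodes the PI3P 5-kinase. It was measured under tunicamycin only, where its probes stood at 0.87 and 1.49 and the gene value was 1.18 ± 0.44 (n = 2). It was not called, and neither of its probes was measured under cycloheximide or rapamycin. Having no measured probe was uncommon, at 3.00% of the genes with 2 named probes under cycloheximide and 4.84% under rapamycin.

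**Figure D3:**
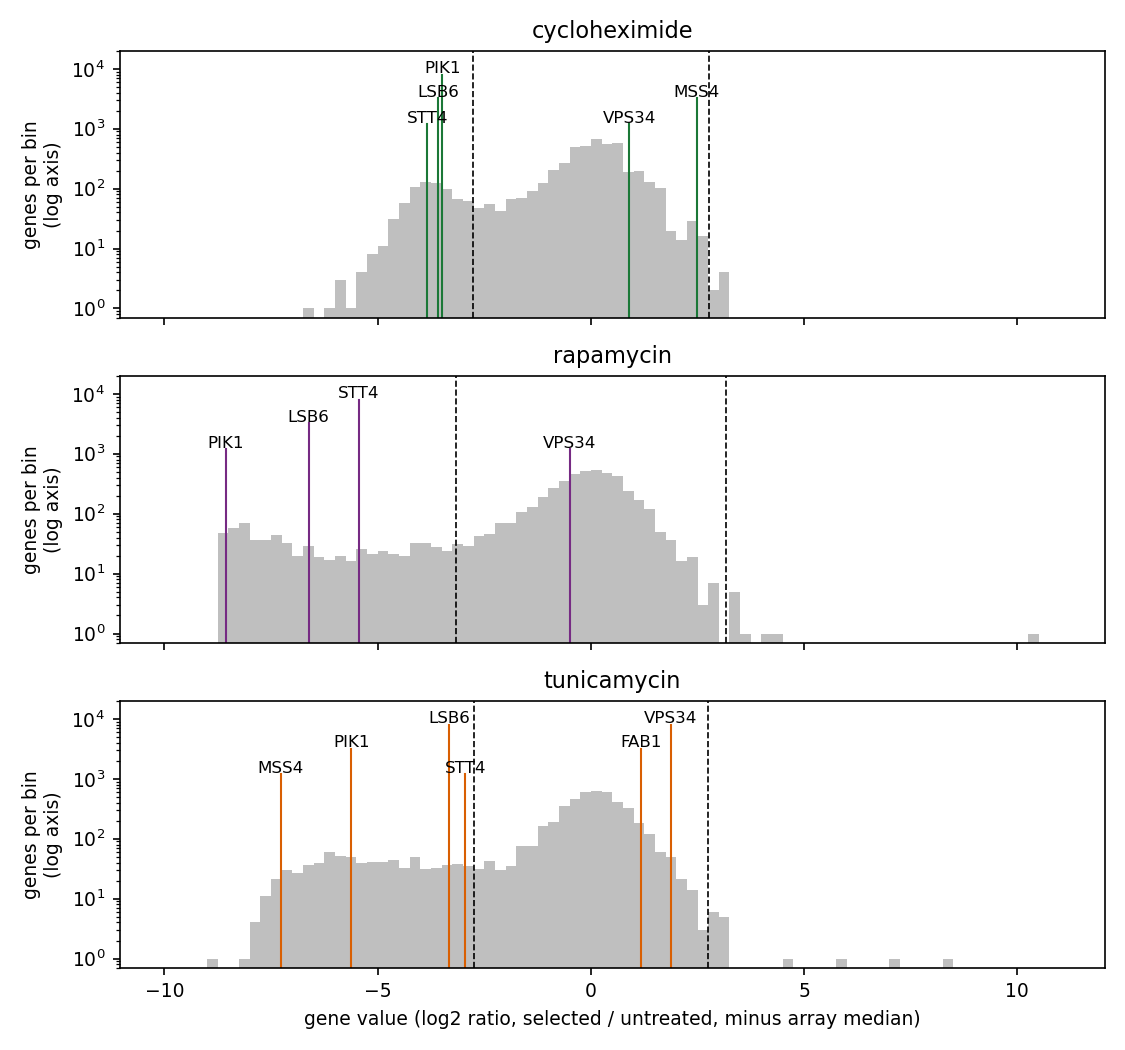
Number of genes (log axis) by gene value in bins of 0.25 on each array, with the measured kinases marked and the 3-unit limits dashed. The PI 4-kinases lie in the lower part of each distribution, VPS34 and FAB1 in the peak near 0 or on its upper side, and MSS4 near the upper limit under cycloheximide and near the lower end under tunicamycin.

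Many deposited values equal, to 3 decimals, the log2 of 1 small whole number over another, with 10 as the largest number considered, namely those of 66.5%, 41.0% and 64.3% of the measured spots under cycloheximide, rapamycin and tunicamycin. Such a ratio cannot go beyond 3.32 on the log2 scale in either direction, so the count says nothing about the PI 4-kinases, whose spots all lay beyond it. Among the spots of VPS34 and FAB1 4 of 7 held such a value, and of the 2 MSS4 spots under cycloheximide, which lay inside that range, none did.

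The partners of the kinases were described from gene lists. Of 42 other genes of phosphoinositide metabolism and binding in 8 lists, 40 had a probe. With at least 2 measured probes, cycloheximide had 5 depleted genes of 32, rapamycin 0 of 31 and tunicamycin 4 of 31, and none was enriched. Set against the shares of all genes given above, 15.2%, 6.45% and 13.6%, these counts are near or below the background. Most genes of these lists are not essential by textbook knowledge and may have had no strain in the library. The counts therefore do not show how often list genes with a strain were depleted. The medians over the genes of all 8 lists were -0.17, -0.06 and 0.02.

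Among the partners of the PI 4-kinases, FRQ1, the calcium-binding activator of Pik1, was depleted under cycloheximide at -3.50 ± 1.12 and under tunicamycin at -6.41 ± 0.38 (SD, n = 2 each). Its only measured probe under rapamycin stood at -8.14, near the lower end of that array. The higher-numbered probe was not measured there, as in PIK1. FRQ1 lay below 0 on the same arrays as PIK1, whose values were -3.48, -5.62 and -8.56 in the same order. YPP1, a subunit of the Stt4 complex, was depleted under cycloheximide at -3.25 ± 0.83 (n = 2). Under tunicamycin its probes stood far apart at -7.83 and -1.07, it was not called, and it was not measured under rapamycin. SFK1, a membrane protein that acts with Stt4, had 1 measured probe on each array, at -0.85, 0.00 and -0.23. EFR3, the membrane anchor of Stt4, had no named probe.

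Of the genes that supply PI, the depleted ones with at least 2 measured probes were 2 of 4 on the cycloheximide array. They were 0 of 2 on the rapamycin array and 2 of 3 on the tunicamycin array. The shares of all genes were 15.2%, 6.45% and 13.6%, but these take in genes that may have had no strain in the library. CDS1, which makes the CDP-diacylglycerol used for PI, was depleted under cycloheximide at -3.85 ± 0.86 and under tunicamycin at -7.29 ± 0.90 (n = 2 each). SEC14, the PI and phosphatidylcholine transfer protein, was depleted on these arrays at -3.22 ± 1.05 and -5.64 ± 1.06 (n = 2 each). Neither gene was measured under rapamycin. PIS1, the PI synthase, had probes at -3.70 and -0.26 under cycloheximide and at -8.44 and -0.85 under rapamycin, with a single probe at -7.74 under tunicamycin, and was not called. In PIS1 the lower-numbered probe was far below 0 on all 3 arrays and the higher-numbered one near 0 where it was measured.

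Of the PI(4,5)P2 effectors, EXO70, an exocyst subunit that binds this lipid, was depleted under cycloheximide at -3.00 ± 0.71 and under tunicamycin at -4.99 ± 0.19 (n = 2 each). Its only measured probe under rapamycin stood at -8.56, as did that of PIK1, near the lower end of that array. SEC3, the other exocyst subunit of that kind, had single probes at -2.91, -1.22 and -2.95 in the order of the arrays. SLM1, which links PI(4,5)P2 to TOR complex 2, was not called, at -0.89 ± 0.89, -3.00 ± 2.72 and 0.96 ± 0.13 (n = 2 each). The highest of the 5 effectors under cycloheximide, where MSS4 stood at 2.49, was the phospholipase C gene PLC1, whose probe mean was 0.44.

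The partners of the endosomal kinases had no call. For genes with many measured probes, such as VPS15, VPS30, ATG14, VAC7 and SAC1, a call was harder to reach. Their lack of a call is therefore not comparable with that of the kinases, which had 2 probes each. In the VPS34 complexes, VPS15, the regulatory kinase, had 0.66 ± 1.33 (n = 12), -1.04 ± 1.30 (n = 12) and 0.29 ± 0.94 (n = 8) under cycloheximide, rapamycin and tunicamycin. The gene values of VPS30, VPS38 and ATG14 stayed between -0.47 and 0.19 on all arrays. Single probes spread more widely, and a VPS30 probe stood at -6.31 under tunicamycin, where the SD of that gene was 1.96 (n = 12). Around FAB1, the regulators VAC7 and VAC14, the phosphatase FIG4 and the PI(3,5)P2-binding protein ATG18 had values between -1.83 and 1.11. None of the phosphatases was called, though INP54 was depleted under tunicamycin without centring, and SAC1, which removes the phosphate from PI4P, had 0.14 ± 1.29 (n = 9), -0.42 ± 1.62 (n = 11) and 1.02 ± 0.86 (n = 7). The inositol polyphosphate kinases and the lipid transfer genes had no call either, with values between -2.04 and 1.81 in all. By textbook knowledge most genes of these lists are not essential.

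**Figure D4:**
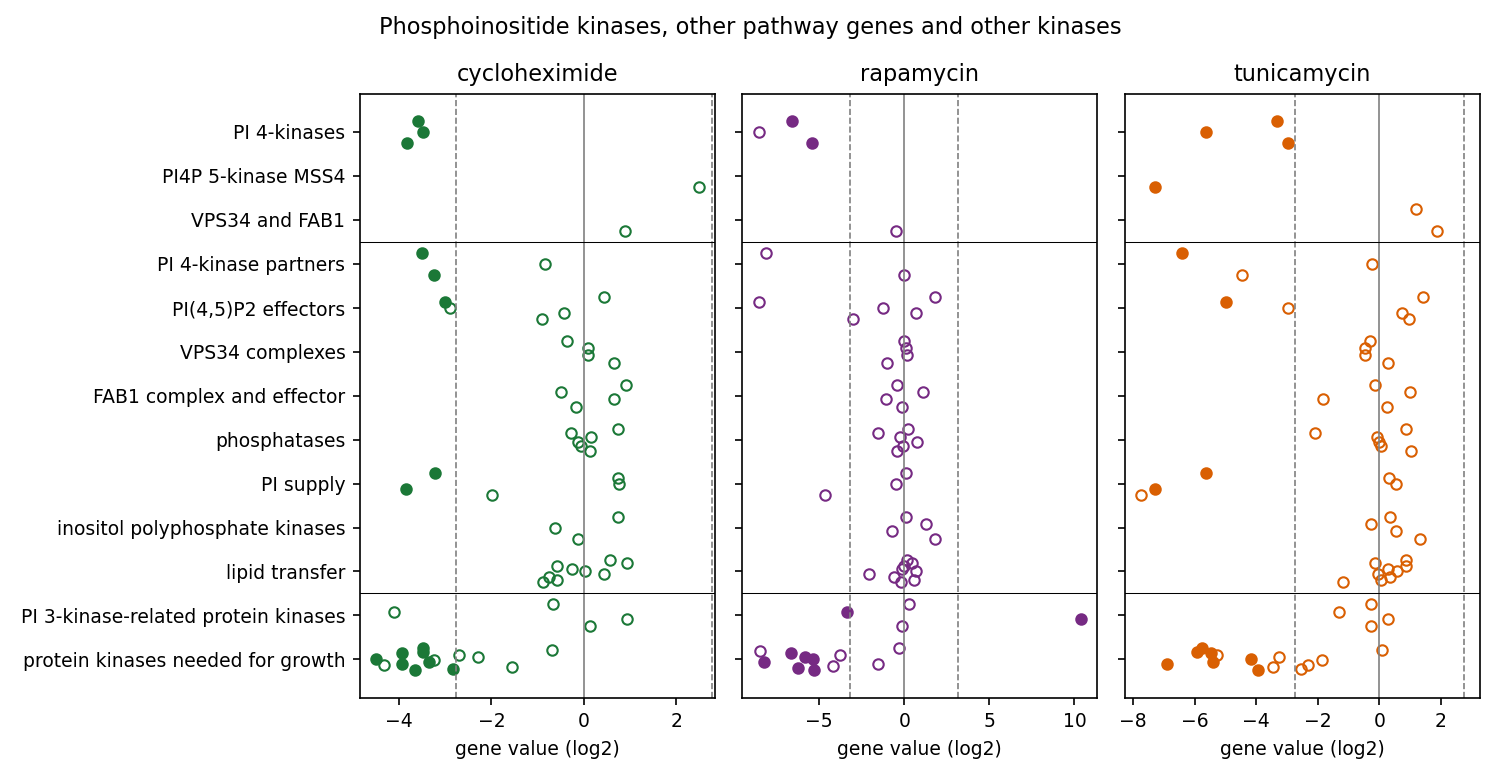
Gene values on each array for the phosphoinositide kinases (top), the other genes of the pathway (middle) and other kinases (bottom); filled points were called depleted or enriched, open points were not, dashed lines are the 3-unit limits and horizontal scales differ between arrays. TOR2 under rapamycin, at 10.40, is the only enriched gene shown.

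Set beside 14 protein kinases needed for growth, the PI 4-kinases lay within their range under cycloheximide and tunicamycin. Under rapamycin PIK1 at -8.56 and the lowest of these protein kinases, RIO2 at -8.46, differed by less than the usual SD between probes. PIK1 and RIO2 each had 1 measured probe there, near the lower end of that array. Of these protein kinases with at least 2 measured probes, cycloheximide had 8 depleted of 12, rapamycin 6 of 9 and tunicamycin 7 of 13. The shares of all genes were 15.2%, 6.45% and 13.6%, but these take in genes that may have had no strain. The medians of the list were -3.42, -5.36 and -4.06. CDC28, MPS1 and RIO1 were depleted on all 3 arrays, CAK1, HRR25, RIO2 and RAD53 under cycloheximide and tunicamycin, CDC7 under cycloheximide and rapamycin, and IPL1 and PKC1 under rapamycin. The range of this list under cycloheximide was -4.50 to -0.68, so MSS4 at 2.49 lay above all 14. Under tunicamycin the list spanned -6.90 to 0.10, and MSS4 at -7.28 lay below all of them. In the protein kinases related to PI 3-kinase, TOR2 was enriched under rapamycin at 10.40 ± 0.04 and MEC1, the DNA damage checkpoint kinase, was depleted there at -3.39 ± 0.41 (n = 2 each). Under cycloheximide TOR2 stood at 0.94 ± 0.29 (n = 2), and TOR1 stayed between -0.27 and 0.14 over the 3 arrays, while TRA1 had no named probe. No phosphoinositide kinase had a value above 0 under rapamycin, and MSS4, whose product PI(4,5)P2 serves TOR complex 2, was not measured on that array.

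Values were also taken for the genes next to the kinases on the chromosome. On the sides of STT4, PIK1 and LSB6, the neighbours ACO1, UBC12, LYP1, IST1, GSH1 and CHS6 had values between -1.15 and 1.68, and none was called. UME6, beside MSS4, stood at 1.71 ± 0.04 under cycloheximide and at 1.01 ± 0.19 under tunicamycin (n = 2 each), so it was above 0 on both, where MSS4 was below 0 under tunicamycin. The gene on the other side of MSS4, YDR209C, had no named probe. CSC1 beside VPS34 had 1.91 ± 1.17 (n = 2) under cycloheximide, which was not called. LIP2 on the other side of VPS34 and YFR018C beside FAB1 had values between -1.57 and -0.06 and no call.

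Likeness to other genes was measured as the Euclidean distance over the 3 gene values, among 2540 genes with at least 2 measured probes on every array. The nearest genes to STT4 were NFI1, a SUMO ligase gene, at a distance of 0.33 and ORC2, of the replication origin complex, at 0.59. Those nearest to PIK1 were SPT14, of GPI anchor synthesis, at 0.39 and the spindle checkpoint kinase gene MPS1 at 0.43, those nearest to LSB6 were the helicase gene MAK5 at 0.19 and CDC27, of the anaphase-promoting complex, at 0.31, and those nearest to VPS34 were EBS1 at 0.38 and JJJ2 at 0.53. With 3 values per gene such a distance is a description only. The rapamycin value of PIK1 and the tunicamycin value of VPS34 rest on 1 measured probe each, fewer than was required of the other genes. MSS4 and FAB1 lacked a value on at least 1 array and were not placed.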

How the data were processed

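The deposited values are log2 ratios of the channels, 1 per spot and array, and how the authors scanned, corrected and normalized the arrays is not stated in the labels used here. Per the labels' protocols, tag regions were amplified from genomic DNA with dye-linked universal primers. Base 2 was taken from the values. Empty values and the value 16.61, which equals the log2 of 100000 and was read as a code, were left out. Depth is not known, and the number of arrays limits the precision. The columns were not centred, with medians of -0.74, -1.32 and -0.87 for cycloheximide, rapamycin and tunicamycin, so each array's median was subtracted (Python 3.11.15, pandas 2.3.3, numpy 2.4.6). Probes were named through the platform annotation, and symbols were updated through the RefSeq gene table of assembly R64 (5321 of 5325 genes matched). No coordinates are printed because the array names no genome build. The members and lists were chosen with earlier results of these data known. All 6 members were named, as were all called genes of the lists, the partner and complex lists, chromosomal neighbours and nearest genes. SFH1 was left out of the lipid transfer list because the gene table gives that symbol to YLR321C, a chromatin remodelling gene. The 6 alternatives covered centring, the code, the threshold, the number of probes, quantile normalization and whole-number ratios.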

Additional observations from a re-analysis of the deposited data

Results flagged for a closer look

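MSS4 was picked out because both of its probes lay at least 1 spread unit above 0 under cycloheximide and at least 1 unit below 0 under tunicamycin. Its value was 2.49 ± 1.25 under cycloheximide and -7.28 ± 1.47 under tunicamycin (SD between 2 probes), a difference of 9.77 on the log2 scale. The same criterion held for 5 of the 568 genes depleted under tunicamycin with 2 measured probes under cycloheximide, MTR2, PRO3, RPT5 and TFB2 being the others. Genes that met the criterion without a depletion call under tunicamycin were not counted, so its share over all genes is not known. The difference was not tested, since each drug had 1 array.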

How the results depend on the processing

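With limits of 4 units for the gene and 3 for each probe, depleted kinases numbered 1 (STT4) under cycloheximide and 2 (PIK1 and MSS4) under tunicamycin, and 1 gene of the other phosphoinositide lists, CDS1, was depleted under cycloheximide. Leaving out spots with whole-number ratios raised the spread unit of the cycloheximide array to 1.64 from 0.92. It left 0 depleted kinases and 0 depleted list genes under cycloheximide, and 2 depleted kinases, PIK1 and MSS4, under tunicamycin. The share of all genes depleted under tunicamycin was then 27.6% (423 of 1532), and at the stricter limits 11.6% (483 of 4169), against 13.6%. Under rapamycin 2 list genes were depleted without centring, PIS1 and SLM1, and 2 when 1 measured probe sufficed, EXO70 and FRQ1, and PIK1 then made 3 depleted kinases of 4. Under tunicamycin INP54 and YPP1 were added without centring, for 6 of 31 list genes, against 15.3% of all genes (639 of 4169). PIS1 and SEC3 were added when 1 probe sufficed, for 6 of 40, against 12.5% of all genes (652 of 5232). The main setting had 4 of 31 list genes, against 13.6%. For centring the cause was not tested. No kinase or list gene was enriched under any of the 6 alternatives, and no kinase value that had been called changed sign. Over all genes, depleted genes under cycloheximide numbered 341 of 4121 at the stricter limits and 6 of 1442 without whole-number ratios, against 625 of 4121. Under rapamycin they numbered 399 of 4015 without centring and 599 of 5110 when 1 probe sufficed, against 259 of 4015. Enriched genes ranged from 0 to 12, from 1 to 9 and from 4 to 14 for cycloheximide, rapamycin and tunicamycin. VPS34 under cycloheximide and tunicamycin had no value without whole-number ratios. No paired analysis was possible because each drug had 1 array. Channel signals were not used here, so no brightness filter was applied.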
